A study of Mus musculus with 8 samples.

Results

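The time course of normal wound healing was followed in CD45+ cells from the back wounds of control mice on days 1, 3, 5 and 7, with 1 library for each day. The cells were the barcodes of these 4 libraries that had UMIs from over 200 genes other than mitochondrial genes and under 20% mitochondrial UMIs. This left 17136 cells, of 35158 in the 8 libraries of the series. The mice were male C57BL/6J and wild-type, with a full-thickness wound. They received no streptozotocin (STZ), the beta cell toxin given to the diabetic mice of the other 4 libraries. Wounds of 5 mice were pooled for each library and the sort kept cells stained for CD45, a marker of blood-derived cells, and for calcein AM, a dye of living cells. The age of the control mice was not given in the sources used here. With a single pool of mice for each day no spread between animals could be measured, so no difference was tested. Intervals are exact 95% intervals that cover counting error only, and PCR errors in molecular identifiers were not part of them.

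A skin wound is first entered by neutrophils, which release granule proteins and the CXC chemokines that attract more neutrophils, and by inflammatory monocytes. Monocytes then turn into macrophages, which clear dead cells, break down matrix and lipid, and secrete growth factors for fibroblasts and vessels. Dendritic cells and T cells, including the gamma delta T cells that live in mouse skin, take part in antigen presentation and in later stages of repair.

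Promoter sequence is shown for 3 CXC chemokine genes, of which Cxcl2 and Cxcl3 were highest on day 1 and Cxcl1 did not change, and for 2 interferon-stimulated genes. Neutrophil chemokines and interferon-stimulated genes are textbook targets of NF-kB and of the interferon response factors. Each window holds 100 bases that end before the start of the gene as RefSeq places it (build GRCm38.p6), written 5′ to 3′ on the strand of the gene. Capitals mark a match to the NF-kB motif, searched as GGGA and TTTCC on either side of any base, in the chemokine genes Cxcl1 (chr5:90891129-90891228, plus strand), Cxcl2 (chr5:90903757-90903856, plus strand) and Cxcl3 (chr5:90785983-90786082, plus strand). They mark matches to the interferon response element, searched as GAAA and GAAA with any 2 bases between them, on either strand in the antiviral genes Ifit1 (chr19:34640749-34640848, plus strand) and Isg15 (chr4:156200836-156200935, minus strand). These promoters were picked because they hold the motif.
Cxcl1: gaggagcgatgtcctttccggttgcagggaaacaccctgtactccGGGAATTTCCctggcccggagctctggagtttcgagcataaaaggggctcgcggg
Cxcl2: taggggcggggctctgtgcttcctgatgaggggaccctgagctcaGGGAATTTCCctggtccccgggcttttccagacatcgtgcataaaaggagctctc
Cxcl3: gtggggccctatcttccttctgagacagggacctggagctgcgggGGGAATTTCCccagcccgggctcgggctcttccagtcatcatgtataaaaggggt
Ifit1: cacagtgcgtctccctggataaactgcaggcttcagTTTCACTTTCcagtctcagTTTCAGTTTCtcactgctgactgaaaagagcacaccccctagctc
Isg15: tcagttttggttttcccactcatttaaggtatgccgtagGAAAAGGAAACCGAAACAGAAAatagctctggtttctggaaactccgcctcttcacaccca
The NF-kB match lay 71 bases before the start in Cxcl1, 97 in Cxcl2 and 73 in Cxcl3. Ifit1 held 2 interferon matches and Isg15 held 3 that overlap each other.

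These 2 motifs and 3 others were searched on both strands in the 250 bases before the start of 27025 RefSeq genes. The NF-kB letters were in 0.359% of all promoters and in 5 of the 125 matched promoters (4%) of genes that changed 4-fold with their highest day on day 1. The interferon letters were in 3.06% of all promoters and in 11 of 21 matched promoters (52.4%) of a list of interferon-stimulated genes. Of the 116 genes highest on day 5, 87 had a promoter in the table, and 1 of these held the NF-kB letters (1.15%). Of the other motifs, AP-1 (TGANTCA) was in 13.6% of the promoters of day 1 genes, against 4.74% for all tested genes and 6.87% for all promoters. The C/EBP letters (TTGC and AA with any 2 bases between them) were in 18.4%, against 8.0% and 9.53%, and the E-box (CACGTG) in 7.2%, against 9.66% and 5.93%. The promoters of genes of days 3, 5 and 7 held AP-1 in 6.67%, 11.5% and 8.33% and C/EBP in 13.3%, 10.3% and 16.7%. A match describes the sequence and shows no binding.

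The libraries were not of equal quality. Of 4609, 5234, 4577 and 4700 barcodes on days 1, 3, 5 and 7, 4412, 4805, 3266 and 4653 were kept. The share removed was 4.27%, 8.20%, 28.6% and 1.00%, so day 5 stood apart. Barcodes of high mitochondrial share made up 3.21%, 4.93%, 27.1% and 1.00% on the 4 days. Barcodes with too few genes made up 2.86%, 5.90%, 15.9% and 0.02%, and a barcode could fail both limits. The total count was 19236522, 20922023, 31185750 and 33842509 UMIs in the same order, and the median kept cell held 3045, 2575, 8234 and 5219 UMIs. Ptprc, the gene of CD45 itself, was at 764, 912, 532 and 655 CPM over the kept cells of the 4 days. Barcodes were numbered in the tables, so shared barcodes could not be counted, but 0 kept cells had the same counts in 2 libraries. The Scrublet doublet caller marked 48 cells, too few to have worked, and no cell was removed as a doublet.

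Cells were clustered and the clusters named from marker genes as "X-like" classes. Neutrophil-like cells made up 60.0% of kept cells on day 1 (58.5 to 61.4; 2645 cells), 41.4% on day 3, 8.42% on day 5 and 22.2% on day 7 (21.0 to 23.4). Monocyte-like cells were 26.2% (24.9 to 27.5), 9.43%, 2.02% and 0.838% (39 cells) on the 4 days. The low share on day 7 depended on how cells were named, since it was 15.5% (719 cells) at finer clustering, 14.7% with no mitochondrial limit and 5.39% with each cell named singly, each above the 2.82%, 5.35% and 2.42% of day 5. Macrophage-like cells went from 1.77% (78 cells) to 10.5%, 39.1% and 39.8% (38.3 to 41.2; 1850 cells). On the last day they were 25.8% at finer clustering, 25.6% with no mitochondrial limit and 24.1% named singly, against 34.3%, 33.6% and 42.8% on day 5, and 53.6% against 57.7% at coarser clustering. Day 1 was thus neutrophil-rich and monocyte-rich and days 5 and 7 macrophage-rich, with more neutrophil-like cells on day 7 than on day 5.

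Osteoclast-like cells, a cluster led by Ctsk, Acp5, Atp6v0d2 and Mmp9, were 0.0907% of cells on day 1 (4 cells), 1.69% on day 3, 9.25% on day 5 (8.27 to 10.3; 302 cells) and 0.967% on day 7. With each cell named singly they were 0.635%, 2.98%, 19.4% (633 cells) and 4.41%. Dendritic-like cells were 2.67%, 8.55%, 5.70% and 7.31%, and 2.67%, 12.3%, 9.0% and 6.79% when named singly. T cell-like cells were 2.31%, 5.33%, 4.65% and 10.8%, and NK cell-like cells 0.816%, 1.58%, 0.122% and 2.66%. Unnamed clusters held 6.21%, 21.5%, 30.7% and 15.5% of cells. Their share was highest in the library that lost the most barcodes, and the part of either in the other shares was not tested.

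**Figure D1:**
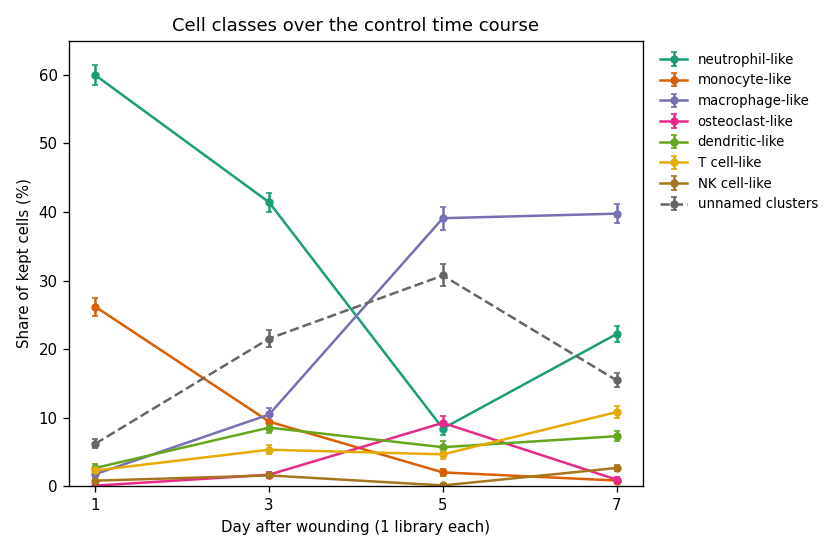
Share of kept cells (%, y axis) in each marker-defined class against the day after wounding (x axis, 1 library each), with bars for the exact 95% binomial interval. Neutrophil-like cells went from 60.0% on day 1 to 8.42% on day 5 and 22.2% on day 7, while macrophage-like cells went from 1.77% to 39.8%.

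Gene levels over all immune cells were followed in CPM, the UMIs of a gene over all kept cells of a library for each 1000000 UMIs of all genes other than mitochondrial genes. In such a pooled level, fewer cells of a type and less RNA per cell cannot be told apart. A gene is said to have changed, risen or fallen when its highest day was at least 4 times its lowest day after 5 CPM was added to each, which is a rule of size and not a test. Of 6389 genes with enough UMIs, 395 changed (6.18%). Of these, 156 were highest on day 1 (2.44% of tested genes), 39 on day 3 (0.61%), 116 on day 5 (1.82%) and 84 on day 7 (1.31%). A further scaling, by the median ratio of genes, moved the median gene by -0.38, 0.05, 0.19 and 0.14 on the log2 scale on days 1, 3, 5 and 7 and gave 288, 19, 54 and 55 genes highest on these days.

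The genes highest on day 1 were led by products of neutrophils. Retnlg, a resistin-like protein of neutrophils, was at 2456, 499.9, 21.1 and 57.3 CPM on days 1, 3, 5 and 7, so its highest day was 116-fold (107 to 126) above its lowest. Lcn2, the iron-scavenging lipocalin of neutrophil granules, stood at 1253, 168, 30.7 and 111 CPM, a range of 40.8-fold (38.1 to 43.6). S100a9, a subunit of the calcium-binding protein calprotectin, was at 8659.6, 3423, 262 and 1305 CPM, a range of 33.1-fold (32.4 to 33.9). All of these were lowest on day 5 and higher again on day 7, as the share of neutrophil-like cells was.

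Of 7 tested neutrophil granule genes, 6 changed and all 6 were highest on day 1, against 2.44% of all tested genes. The exception was Mmp9, the gelatinase of neutrophils and osteoclasts, at 419, 352, 956 and 236 CPM, which was highest on day 5. Of 17 genes of neutrophil maturity and the S100 family, 15 changed, 10 with their highest day on day 1 and 5 on day 3. Over all tested genes these shares were 6.18%, 2.44% and 0.61%. The day 3 genes included Cxcr2, the receptor for neutrophil chemokines, at 203, 332, 25.7 and 99.1 CPM and Il1r2, the decoy receptor for interleukin 1, at 1109, 1139.6, 258 and 570.2 CPM. Their levels on days 1 and 3 were less than 2-fold apart.

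Most inflammatory mediators were highest at the start. Of 22 tested, 15 changed and all 15 were highest on day 1, against 2.44% of all tested genes. Il1f9, an epidermal member of the interleukin 1 family, was at 1189.9, 298, 32.4 and 116 CPM on days 1, 3, 5 and 7 and covered 36.7-fold (34.4 to 39.2). Il1b, the main secreted interleukin 1, was at 7164, 3715, 1001 and 1805 CPM, and its largest fold drop lay between days 3 and 5. Acod1, the itaconate-making enzyme of activated phagocytes, was at 4429.8, 1151, 143 and 432 CPM. Tnf, the cytokine tumour necrosis factor, fell at every step from 2673 to 589 CPM, by 4.54-fold (4.46 to 4.61).

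The chemokines did not move as a block. Of 9 CXC chemokines 4 changed and of 11 CC chemokines 5 changed, against 6.18% of all tested genes. Cxcl3 was at 4431, 420.3, 311 and 373 CPM and Cxcl2 at 40952, 14973, 8577 and 9991 CPM, both highest on day 1, whereas Cxcl1 was at 3215, 2469.6, 3617 and 2486 CPM and did not pass 4-fold, although all 3 hold the same letters near their start (above) and attract neutrophils through Cxcr2. Ppbp, a platelet chemokine, was at 661, 20.1, 64.9 and 21.6 CPM. Among the CC chemokines, Ccl3 and Ccl4, which attract monocytes and T cells, were highest on day 1 at 7374 and 5859 CPM and lowest on day 5 at 848 and 989 CPM. Ccl2, the main attractant of inflammatory monocytes, was at 1459, 352, 549 and 550.4 CPM, and Ccl8, a chemokine of resident-like macrophages, went the other way, at 49.2, 98, 841 and 588 CPM.

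Of 28 tested interferon-stimulated genes, 22 did not change and 6 did, all highest on day 1, against 2.44% of all tested genes. Isg15, the ubiquitin-like antiviral protein, was at 306, 146, 60.2 and 71.4 CPM and Rsad2, which blocks viral replication, at 555, 170.4, 90.2 and 118 CPM. Ifit1 was at 114, 39.6, 32 and 53.3 CPM and did not pass 4-fold. Slfn4, a schlafen of activated myeloid cells, had the largest range of the list, at 3169, 645, 75.8 and 253 CPM or 41.8-fold (40.1 to 43.6). Of 25 glycolysis and hypoxia genes 2 changed, near the 6.18% of all tested genes. These were Slc2a3, the glucose transporter of neutrophils, at 149.9, 144, 10.3 and 33.9 CPM, and Slc16a3, the lactate exporter, at 195, 238, 37.6 and 104 CPM.

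**Figure D2:**
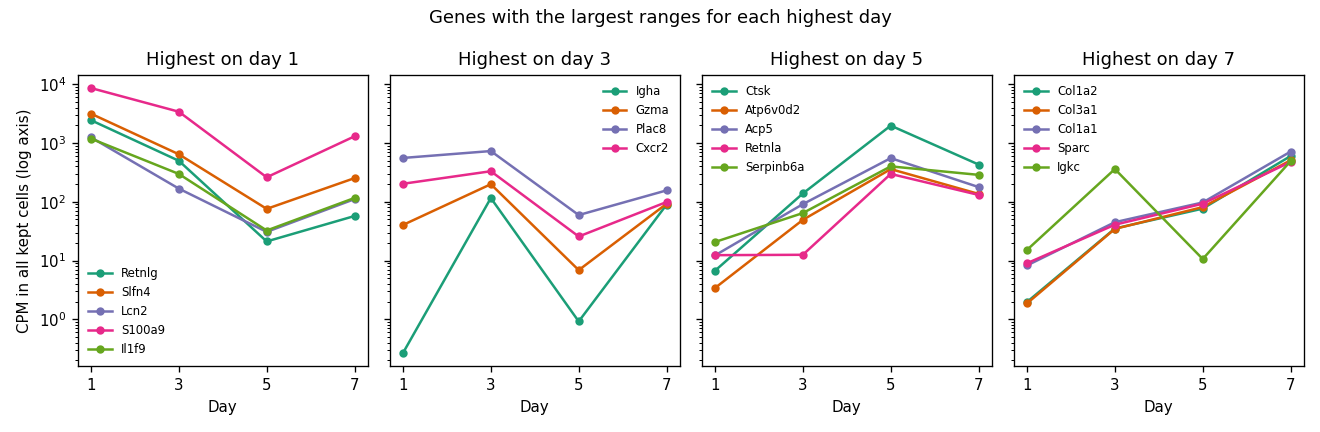
CPM over all kept cells (y axis, log scale) against day (x axis) for genes with the largest ranges for each highest day (5 for days 1, 5 and 7, and 4 for day 3), at 1 library for each point. Retnlg dropped from 2456 CPM on day 1 to 21.1 on day 5, Ctsk rose from 6.70 to 1985 over the same days, and Col1a2 reached 602 CPM on day 7.

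The 39 genes highest on day 3 included genes of lymphocytes and of antigen presentation, beside the neutrophil and monocyte genes Cxcr2 and Plac8. Of 11 tested genes of MHC class II presentation, 6 changed and all 6 were highest on day 3, against 0.61% of all tested genes. H2-Ab1, a chain of the class II molecule, was at 1093, 5486, 3615 and 4466 CPM and Cd74, its invariant chain, at 1068, 4790.1, 2847 and 4262 CPM, so that after day 1 the levels were less than 2-fold apart. Gzma, a granzyme of killer lymphocytes, was at 40.3, 199, 6.86 and 92.5 CPM, a range of 29.1-fold (25.2 to 33.6). Plac8, found in inflammatory monocytes and neutrophils, was at 558, 732, 59.5 and 156 CPM.

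Of 20 genes of T and NK cell function 9 changed, against 6.18% of all tested genes. Of the 9, 4 were highest on day 3 and 5 on day 7, against 0.61% and 1.31% of all tested genes. Icos, the costimulator of activated T cells, was at 29.6, 120.0, 62.9 and 269 CPM. Among immunoglobulin genes, Igha, the heavy chain of IgA, was at 0.266, 116, 0.917 and 89.6 CPM, from 5 UMIs on day 1 and 2353 on day 3, and Igkc, the kappa light chain, at 15.1, 361, 10.6 and 493 CPM. Both were high on days 3 and 7 and low on days 1 and 5. No named class was of B cells or plasma cells. An unnamed cluster of 74 cells (21, 28, 13 and 12 on the 4 days) had Ighg2b, Igkc, Igha and Jchain among its leading genes. The basophil and mast cell genes Gata2 and Mcpt8 were also among them, and the cluster scored best on the basophil markers. Immunoglobulin RNA was also measured in named classes. On day 7 Igkc was at 1302 CPM in neutrophil-like, 203 in monocyte-like and 222 in macrophage-like cells. With each cell thinned to the same depth (below), Igkc was found in 20.5% of neutrophil-like and 15.4% of monocyte-like cells of day 7. The share was 20.1% in macrophage-like, 23.5% in dendritic-like and 23.7% in T cell-like cells. It was thus no higher in neutrophil-like than in dendritic-like or T cell-like cells. Which cells made this RNA was not tested.

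Genes highest on day 5 were led by those of bone-resorbing cells. Ctsk, the collagen-digesting cathepsin K, was at 6.7, 139, 1985 and 431 CPM on days 1, 3, 5 and 7, from 126 UMIs on day 1 and 58423 on day 5, a range of 296-fold (249 to 356). Atp6v0d2, a proton pump subunit needed for the fusion of osteoclasts, was at 3.4, 49.3, 361 and 136 CPM, a range of 106-fold (82.9 to 138). Acp5, tartrate-resistant acid phosphatase, was at 12.2, 91.2, 554 and 178 CPM, a range of 45.3-fold (39.8 to 51.9). These 3 were among the 5 of 28 lysosomal genes that changed, against 6.18% of all tested genes. The whole list stood at summed levels of 14944, 19292, 36262 and 29236 CPM, highest on day 5.

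Part of the phagocyte genes were highest on day 5 or day 7. Of all tested genes 6.18% changed, 1.82% with their highest day on day 5 and 1.31% on day 7. Of 11 complement genes 4 changed, all highest on day 5, among them C1qa, a chain of the C1q recognition molecule, at 104, 473, 1086 and 792 CPM. Of 13 scavenger and lectin receptors 6 changed, 5 highest on day 5 and 1 on day 7. Cd36, the fatty acid and lipoprotein receptor, was at 184, 128, 855 and 650.4 CPM. Of 15 genes of dead cell clearance 4 changed, 2 highest on each of these days, among them the bridging protein Gas6 at 14.2, 48.6, 192 and 156 CPM.

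Of 19 genes of lipid uptake and storage 7 changed, against 6.18% of all tested genes. Apoe, the lipid carrier of macrophages, was at 389, 3322, 7577 and 7636 CPM, and Trem2, a lipid-sensing receptor, at 74.6, 264, 614 and 483 CPM. The exception in direction was Spp1, osteopontin, at 3619, 768, 1462 and 941 CPM and highest on day 1. Retnla, a product of macrophages activated by interleukin 4, was at 12.3, 12.5, 298 and 131 CPM, a range of 24.2-fold (21.2 to 27.7). Serpinb6a, an intracellular protease inhibitor, was at 20.7, 64.3, 401 and 288 CPM, a range of 19.4-fold (17.5 to 21.5).

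Of 21 tested genes of cell division, 13 changed and all 13 were highest on day 5, against 1.82% of all tested genes. Top2a, the topoisomerase of dividing cells, was at 6.75, 51.8, 113 and 55.3 CPM and Stmn1, a microtubule regulator, at 7.12, 74, 154 and 69.8 CPM. The summed level of the list was 663, 1604, 2169 and 1492 CPM. The osteoclast-like class was at its largest share on that day, and its Top2a level was 228, 417 and 494 CPM on days 3, 5 and 7.

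On day 7 the leading genes were those of fibroblasts, which the CD45 sort should leave out. All 7 tested fibroblast markers changed and were highest on day 7, against 1.31% of all tested genes. Col1a2, a chain of type I collagen, was at 1.97, 35.1, 76.5 and 602 CPM, a range of 306-fold (222 to 435). Col3a1, of type III collagen, was at 1.86, 34.5, 81.2 and 509 CPM, Col1a1 at 8.24, 44.9, 97.5 and 716 CPM and Sparc, a matrix-binding glycoprotein, at 8.98, 40.7, 92.9 and 477 CPM. The list summed to 27.1, 166, 398 and 2544 CPM over all cells. An unnamed cluster of 531 cells, 469 of them from day 7, was led by these collagen genes together with the mast cell genes Cpa3, Mcpt4, Tpsb2 and Cma1. At coarser and at finer clustering these parted. The collagen genes then led a fibroblast cluster of 38 cells (1, 5, 11 and 21 on the 4 days). The mast cell genes led another cluster, of 49 cells at coarser and 510 at finer clustering, 24 and 462 of them from day 7. On day 7 the fibroblast markers summed to 752 CPM in neutrophil-like, 631 in monocyte-like, 865 in macrophage-like, 715 in dendritic-like and 737 in T cell-like cells. The level in every class was thus of like size, and whether it is free RNA was not tested.

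In all, 58 genes rose at every step and changed (0.908% of tested genes), the collagens and Sparc among them. Igf1, the insulin-like growth factor made by repair macrophages, was at 7.71, 27.6, 263 and 277 CPM, a range of 35.9-fold (30.5 to 42.6). Gdf15, a stress-induced cytokine of the TGF-beta family, was at 48.6, 246, 631 and 725 CPM. Of 14 growth and repair factors 9 changed, against 6.18% of all tested genes. Thbs1, the matrix protein thrombospondin 1, went against the rise, at 9396, 1994, 789.9 and 1825 CPM. Mertk, a receptor for dead cells, was at 8.82, 26.3, 79 and 95.6 CPM and rose at every step.

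Only 10 genes fell at every step and changed (0.157%). Serpinb2, the plasminogen activator inhibitor of monocytes, was at 405, 24.3, 9.48 and 8.25 CPM, a range of 49-fold (43.4 to 55.5). Csf3, the growth factor of neutrophils, was at 216, 45, 34.2 and 31 CPM and fell mainly between days 1 and 3. Glrx, a glutathione-dependent oxidoreductase, was at 792, 275, 155 and 148 CPM, and Clec5a, a myeloid lectin receptor, at 242, 68.1, 63.3 and 49.7 CPM. Scaling by the median ratio gave 19 falling and 34 rising genes in their place.

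Lists of general cell functions were also counted. Of all tested genes 6.18% changed. The counts of immediate early genes and of transcription factors that follow lay near that share. None of 49 nuclear subunits of oxidative phosphorylation changed, with a median range of 1.02 on the log2 scale beside 0.76 for all tested genes. Of 19 immediate early genes, which respond to stimulation and to dissociation, 1 changed, Fosb, at 496, 1302, 1882 and 2201 CPM. Of 12 heat-shock genes 4 changed, all highest on day 7, led by Hspa1a, an inducible chaperone, at 96.9, 726, 524 and 1084 CPM. Of 22 myeloid transcription factors 2 changed, among them Nfatc1, the main regulator of osteoclasts, at 56.4, 134, 299 and 157 CPM.

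Levels over all cells mix the level inside each class with the number of cells. The days were therefore recomputed with each class at its mean share of UMIs. Osteoclast-like and NK cell-like cells were too few on some days and were held as 1 group, which was mostly NK cell-like on day 1 (0.698% of UMIs, against 0.0116%) and osteoclast-like on day 5 (21.3% against 0.0756%), so the balance of these 2 classes was not held fixed. Of the 395 genes, 103 were still 4-fold apart between the same days, 69 were under 2-fold and 2 turned their order. The median log2 range went from 2.48 to 1.5. By highest day, 25 of 156 genes of day 1, 9 of 39 of day 3, 28 of 116 of day 5 and 41 of 84 of day 7 were still 4-fold apart, the largest share being that of day 7. With both classes left out, an alternative added after the data were seen, 93 of the 395 were still 4-fold apart, 85 were under 2-fold and 3 turned, and for day 5 the count was 19 of 116.

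Single genes differed in this respect. For Retnla the log2 range was 4.13 as measured and 0.61 at fixed shares, and for Igf1 it was 4.47 and 1.11. For Ctsk the range was 7.41 and 6.68, for Col1a2 6.44 and 5.64, and for Retnlg 6.56 and 3.96. Without the osteoclast-like and NK cell-like cells the range of Ctsk was 5.42, and those of Retnla, Igf1, Col1a2 and Retnlg were 0.57, 1.05, 5.66 and 3.93. Over all tested genes, 145 of 6293 changed at fixed class shares, 114 of 6161 without these 2 classes and 255 when clusters were held fixed in place of classes. A class that holds different cells on different days can keep a range that comes from its makeup.

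**Figure D3:**
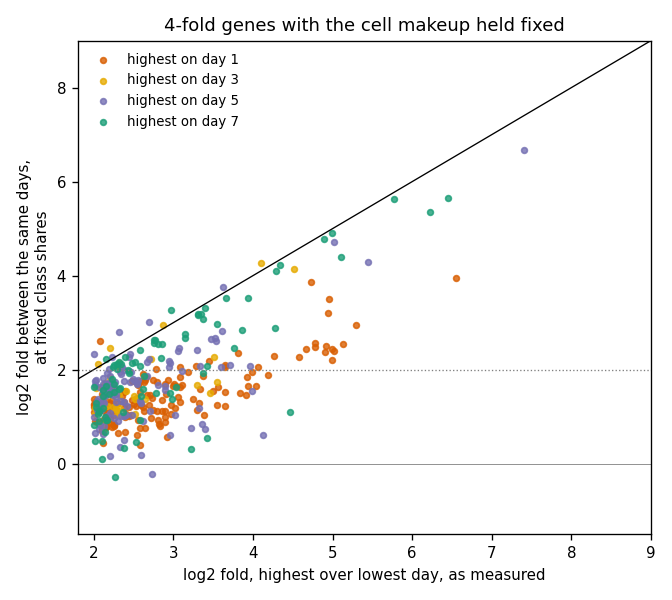
For each of the genes that changed, the log2 fold between its highest and lowest day as measured (x axis) and between the same days at fixed class shares, with osteoclast-like and NK cell-like cells as 1 group (y axis), coloured by highest day. The solid line marks equal values and the dotted line 4-fold. Most points lie under the solid line, with a median of 1.5 against 2.48, and 2 genes lie under 0.

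The same days were sampled in STZ-diabetic wounds, in separate libraries. Of the 156 genes that changed and were highest on day 1, 141 (90.4%) were also highest on day 1 in the STZ libraries, beside 16.3% of all tested genes. Of the 84 genes highest on day 7, 73 (86.9%) were highest on day 7 there, beside 55.4% of all tested genes. Of the 39 genes of day 3 and the 116 of day 5 this held for 2 (5.13%) and 4 (3.45%), beside 15.2% and 13%. The genes of days 1 and 7 were thus above the share of all tested genes and those of days 3 and 5 below it, and these differences were not tested. In control libraries 43.3% of all tested genes were highest on day 5, the library of the deepest cells.

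Changes within a class were computed from the summed UMIs of its cells with the same 4-fold rule. They numbered 1194 of 5833 genes in neutrophil-like cells (20.5%), 209 of 6181 in monocyte-like cells (3.38%), 142 of 6381 in macrophage-like cells (2.23%), 146 of 6272 in dendritic-like cells (2.33%) and 390 of 7013 in T cell-like cells (5.56%). Within the largest cluster of each class that had 20 cells on each day, the shares were 23%, 2.91%, 4.87%, 2.58% and 6.04% in the same order. Small classes pass the rule more easily through counting error, and the number of cells is given beside them.

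In neutrophil-like cells, 8 of 20 tested inflammatory mediators changed and all 8 were highest on day 1, against 1.17% of all tested genes. Il1a, the alarm cytokine of the interleukin 1 family, was at 3759, 762, 204 and 232 CPM, a range of 18.5-fold (16.4 to 20.9), and Cxcl3 at 5716, 1133, 564 and 1024 CPM, a range of 10.1-fold (9.43 to 10.9). Il23a, the subunit of interleukin 23 that sustains interleukin 17 responses, was at 347, 268, 38.6 and 31.9 CPM, and Tnf at 4882, 2789.8, 958 and 838 CPM. Retnlg was at 5869, 1986, 421 and 321 CPM, so its fall over all cells was also seen inside the class. Il1b, in contrast, was at 13060.5, 10443, 5378 and 6179 CPM and Cxcr2 at 495, 1404, 487 and 697 CPM, and neither passed 4-fold.

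By highest day, 68 genes of neutrophil-like cells were highest on day 1 (1.17% of tested genes), 11 on day 3 (0.189%), 799 on day 5 (13.7%) and 316 on day 7 (5.42%). Lpl, the lipoprotein lipase of macrophages and fat, was at 9.88, 68, 952 and 712 CPM, Mmp12, macrophage elastase, at 2.71, 2.81, 589 and 185 CPM and Lyz1, a lysozyme, at 1.08, 1.3, 191 and 23.3 CPM. Over all tested genes 20.5% changed in this class. Of 48 nuclear subunits of oxidative phosphorylation 30 changed and of 28 lysosomal genes 14 did, 13 of them highest on day 5. Of 12 heat-shock genes 9 changed. Igha was at 0, 21.7, 0 and 485 CPM. With a floor of 3 UMIs in place of the 0 UMIs of day 1, its level was 1196-fold higher on day 7. The lower limit of the interval from the counts themselves was 972-fold. The light chain Igkc was found in other classes too (above), and whether neutrophil-like cells made Igha was not tested.

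Marker sums of other classes moved in the same cells. Summed over 24 macrophage markers, the level in neutrophil-like cells was 835, 2653, 13988 and 11802 CPM on days 1, 3, 5 and 7, while that of 22 neutrophil markers was 72169, 54278, 20939 and 28273 CPM. Of the 799 genes highest on day 5, 616 were lower in neutrophil-like than in macrophage-like cells of that day and 0 were 4-fold above them. Set beside other classes of that day, 386 were lower than in monocyte-like, 380 than in dendritic-like and 450 than in T cell-like cells. Of the 68 genes highest on day 1, 56 were 4-fold above the macrophage-like cells. Most cells of the class came from cluster 2 on day 1 (1375 of 2645), cluster 0 on day 3 (1387 of 1990) and cluster 6 on day 7 (908 of 1033), while on day 5 cluster 6 held 118 and cluster 0 held 113 of 275. The part of this RNA in the count of 1194 was not tested. With cells named singly from their marker scores the count was 225, and with each cell at equal weight it was 338. Scaling by the median ratio gave 665, with shifts of the median gene of -0.71, -0.15, 0.48 and 0.38 on the log2 scale over the 4 days.

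**Figure D4:**
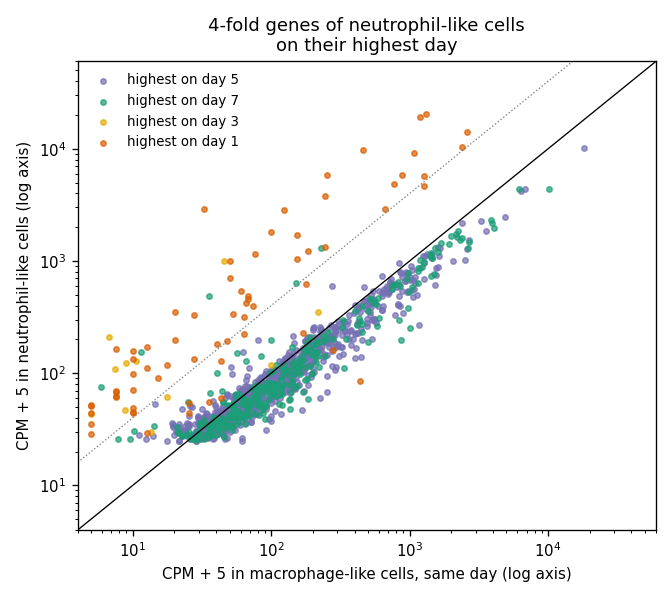
Level of each gene that changed in neutrophil-like cells on its highest day (y axis, CPM + 5, log scale) against its level in macrophage-like cells of the same day (x axis, CPM + 5, log scale), coloured by highest day. The solid line marks equal levels and the dotted line 4-fold higher in neutrophil-like cells. Genes of day 1 lie mostly above the dotted line (56 of 68) and none of the 799 genes of day 5 does.

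Monocyte-like cells (1155, 453, 66 and 39 cells) had 53 genes highest on day 1 (0.857%), 39 on day 3 (0.631%), 49 on day 5 (0.793%) and 68 on day 7 (1.1%). Chemokines were among the genes of day 1. Ccl2 was at 2666, 514, 568 and 679 CPM, Ccl7, a related chemokine, at 1528, 316, 432 and 758 CPM and Cxcl3 at 4182, 322, 1225 and 1058 CPM. Of 12 CC chemokines 7 changed, 5 of them highest on day 1 and 2 on day 5. Ppbp was at 1200.0, 16.3, 79.2 and 6.93 CPM, a range of 173-fold (59.3 to 840.0), from 11285 UMIs on day 1 and 3 on day 7. Saa3, an acute phase protein, was at 538, 133, 169 and 39.3 CPM.

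Of 10 tested antigen presentation genes in monocyte-like cells, 6 changed, against 3.38% of all tested genes. Of the 6, 2 were highest on day 3 and 4 on day 5. The 25 dendritic cell markers, some of them class II genes, summed to 3069, 16270, 19087 and 16069 CPM in this class, and their part in the change was not tested. H2-Ab1 was at 729, 4321, 4976 and 4316 CPM and Cd74 at 804, 4212, 4369 and 4277 CPM, low on day 1 and near a plateau from day 3. Cxcl9, a chemokine induced by interferon gamma, was at 1.38, 167, 172 and 0 CPM, high on the middle days and with 0 UMIs on day 7. Ereg, epiregulin, a growth factor for keratinocytes, was at 41.5, 6.63, 240.4 and 106 CPM. Il1b was at 3667, 2754, 4057 and 4111 CPM and Tnf at 1391, 1234, 2142 and 1605 CPM, and neither passed 4-fold, so these cytokines did not share the fall seen over all cells.

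The 15 monocyte markers together stood at 25539, 28313, 23278 and 17587 CPM in this class, less than 2-fold apart. Single genes of classical monocytes were lower on days 5 and 7 than on days 1 and 3. Plac8 was at 857, 2658, 462 and 263 CPM and Ly6c2, the surface antigen of inflammatory monocytes, at 1117, 1556, 541 and 346 CPM. Chil3, a chitinase-like protein of myeloid cells, was at 1464, 396, 159.8 and 64.7 CPM. Macrophage products went the other way, with Apoe at 606, 3030.2, 4749.9 and 5587 CPM and C1qa at 139.9, 411, 868 and 661 CPM. Cluster 5 held 1139 of 1155 cells on day 1 and cluster 14 held 260 of 453 on day 3, and within cluster 5 alone 177 genes changed.

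Macrophage-like cells (78, 503, 1277 and 1850 cells) had 61 genes highest on day 1 (0.956%), 18 on day 3 (0.282%), 36 on day 5 (0.564%) and 27 on day 7 (0.423%). Of 14 tested scavenger and lectin receptors, 7 changed and all 7 were highest on day 1. Cd163, the haemoglobin scavenger receptor of resident macrophages, was at 518, 49.6, 183 and 136 CPM, and Lyve1, a hyaluronan receptor of the same cells, at 307, 13.3, 98.4 and 34.9 CPM from 121, 60, 1553 and 662 UMIs. Cd209d and Cd209f, lectins of the DC-SIGN family, were at 135, 5.31, 40.0 and 10.1 and at 139.6, 9.96, 65.5 and 11.9 CPM. The lowest day of each of these was day 3. Cluster 13, led by Retnla, Ccl8, Lyve1, Cd163 and Cd209f, held 16 of the 78 cells on day 1, 29 of 503 on day 3, 206 of 1277 on day 5 and 162 of 1850 on day 7, so its share was lowest on day 3 too. In cluster 4 alone Lyve1 was at 28, 1.99, 14.4 and 8.23 CPM.

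Of 19 genes of lipid uptake and storage 4 changed in macrophage-like cells, 3 of them highest on day 5, and of 28 lysosomal genes 4 changed, all highest on day 5, beside 0.564% of all tested genes. Of these 4, Acp5, Atp6v0d2 and Ctsk changed in all 5 classes, and the 8 osteoclast markers summed to 81.2, 260.5, 859.9 and 491 CPM in macrophage-like cells, so that these values moved together. The part of osteoclast RNA was not tested. Apoe was at 2010.1, 8406, 10984 and 10084 CPM, Gpnmb, a glycoprotein of lipid-laden macrophages, at 76.1, 431, 1035 and 620.2 CPM and Lipa, lysosomal acid lipase, at 239, 486, 1006 and 814 CPM. Slc40a1, the iron exporter ferroportin, was at 2.54, 17, 133 and 45.1 CPM and Vcam1, an adhesion molecule, at 7.61, 24.8, 138 and 133 CPM, from 1 and 3 UMIs on day 1. Gdf15 was at 231, 623, 917 and 961 CPM and rose at every step in the class, but in cluster 4 alone it was at 178, 633, 946 and 321 CPM, highest on day 5. Retnla and Igf1 were high on day 1, low on day 3 and high again on day 5, at 442, 17.3, 477 and 179 CPM and at 279, 89.6, 402 and 365 CPM. In cluster 4 alone, without the Retnla-led cluster 13, Retnla was at 297, 2.99, 89.7 and 41.2 CPM, highest on day 1.

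Other genes of macrophages did not change in this class. C1qa was at 1180.2, 1255, 1535 and 1080.2 CPM, C1qb at 2749, 2824, 3555 and 3190.3 CPM and Mrc1, the mannose receptor, at 2074, 948, 1523 and 1413 CPM, and none of them passed 4-fold. Outside the class, C1qa went from 139.9 to 868 CPM between days 1 and 5 in monocyte-like cells. Slfn4 at 868, 143, 35.1 and 103 CPM and Slpi, a protease inhibitor of neutrophils, at 1061, 278, 90.8 and 274 CPM were highest on day 1, when neutrophil markers summed to 4431 CPM in this class, against 2424, 692 and 2300 CPM on the later days.

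The macrophage-like cells of days 1, 3 and 5 lay mostly in cluster 4 (56, 430 and 1030 cells) and those of day 7 in cluster 1 (1651 of 1850), which had Gdf15, Igf1 and Mertk among its leading genes. Within cluster 4 alone, 315 genes changed, over 37 cells on day 7. There, Ctsk was at 6.99, 48.8, 423 and 140.0 CPM, Gpnmb at 97.9, 472, 1175 and 939 CPM, Igf1 at 161, 72.3, 381 and 401 CPM, Cd163 at 279.7, 24.4, 35.2 and 52.1 CPM and Apoe at 1678, 8441, 10886 and 9149.7 CPM. Ctsk, Gpnmb and Apoe were thus low on day 1 in the cluster as in the class. At finer clustering the class gave 357 changed genes and at equal weight for each cell 335.

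Osteoclast-like cells had too few cells on day 1, 4 in all, for a level. On days 3, 5 and 7 (81, 302 and 45 cells) Ctsk was at 1909, 7518 and 6211 CPM, Mmp9 at 872, 3426 and 2858 CPM and Acp5 at 841, 1829.9 and 1809 CPM. Atp6v0d2 was at 619.6, 1194 and 1048 CPM and Nfatc1 at 686, 952 and 916 CPM. The resorption genes were lowest on day 3 and were less than 2-fold apart on days 5 and 7, while the share of the class dropped from 9.25% to 0.967% between those days.

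Dendritic-like cells (118, 411, 186 and 340 cells) had 50 genes highest on day 1 (0.797%), 6 on day 3 (0.0957%), 45 on day 5 and 45 on day 7 (0.717% each). Their class II genes did not pass 4-fold, with H2-Ab1 at 12138, 18453, 17601 and 15077 CPM. Ehf, an epithelial transcription factor, was at 133, 6.31, 62 and 8.05 CPM, high on days 1 and 5, and Sod3, extracellular superoxide dismutase, at 11.1, 16.7, 101 and 5.23 CPM, high on day 5 only. Ffar2, a receptor for short fatty acids, was at 13.6, 141, 52.2 and 61.6 CPM and Pla2g7, which degrades platelet-activating factor, at 16, 46.4, 138 and 109 CPM. Gdf15 was at 19.7, 69.1, 187 and 303 CPM in these cells. The 24 macrophage markers summed to 746, 2149, 6473 and 7273 CPM in dendritic-like cells, and their part in the levels of Gdf15 and Pla2g7 was not tested. Slfn4 at 446, 88, 26.7 and 70.9 CPM and Slpi at 661, 206, 31.3 and 208 CPM were highest on day 1, as in the other classes.

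T cell-like cells (102, 256, 152 and 503 cells) had 60 genes highest on day 1 (0.856%), 78 on day 3 (1.11%), 205 on day 5 (2.92%) and 47 on day 7 (0.67%). Gzma was at 165, 1519, 50.6 and 226 CPM and Ccl5, a chemokine of activated T cells, at 1820.1, 4044, 855 and 797 CPM, both highest on day 3. Il17a and Il17f, the interleukin 17 cytokines of gamma delta and helper T cells, were at 268, 100.3, 50.6 and 419 CPM and at 456, 11.8, 135 and 353 CPM, high on days 1 and 7 and low between them. Penk, the precursor of enkephalins, was at 0, 122, 454 and 139.8 CPM. With the same floor of 3 UMIs for day 1 its level was 54.2-fold higher on day 5, and the lower limit from the counts was 43.8-fold. Icos was at 1389.5, 1692, 1834 and 3074 CPM and Trac, the constant chain of the alpha beta receptor, at 931, 916, 883 and 792 CPM, and neither passed 4-fold.

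Of 26 tested division genes in T cell-like cells 13 changed, against 5.56% of all tested genes. Of the 13, 8 were highest on day 3 and 5 on day 5. Stmn1 was at 86.7, 417, 388 and 226 CPM, and Top2a, at 101, 404, 325 and 283 CPM, stood just under 4-fold. Cluster 17 of the class, with Top2a, Pclaf and Gzma among its leading genes, held 2 of 102 cells on day 1, 38 of 256 on day 3, 21 of 152 on day 5 and 36 of 503 on day 7. The part of this cluster in the Gzma level of day 3 was not tested. Foxp3, the regulator of regulatory T cells, was at 33.5, 67.4, 152 and 145 CPM from 12, 86, 123 and 339 UMIs. Other genes that changed in the class are known from myeloid cells. The 24 macrophage markers summed to 590, 1416, 9117 and 6963 CPM in T cell-like cells and the 25 dendritic cell markers to 4306, 7681, 13048 and 8172 CPM. Of the class II genes, some of which are among the dendritic cell markers, 7 of 10 changed with their highest day on day 5, and Clec4a3, a lectin of myeloid cells, was at 0, 34.5, 124 and 81.7 CPM. Of the 205 genes highest on day 5, 134 were lower than in the macrophage-like cells of that day, 28 of them 4-fold, and 33 were 4-fold above them. Of the 78 highest on day 3, 4 were lower than in macrophage-like cells and 40 were 4-fold above them. The part of myeloid RNA in the count of 390 was not tested.

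The classes shared part of their changes. Of 4932 genes tested in all 5 classes, 893 changed in 1 class, 126 in 2, 41 in 3, 28 in 4 and 29 in all 5. Of the 29, 19 had the same highest day in every class. On day 1 these were 11 genes known mainly from neutrophils and inflamed myeloid cells, namely Chil1, Chil3, Fpr1, Lcn2, Retnlg, S100a8, S100a9, Slfn4, Slpi, Stfa2l1 and Wfdc21. On day 5 they were Acp5 and Igf1, and on day 7 the 3 collagen genes Col1a1, Col1a2 and Col3a1 with Sparc and the mast cell proteases Mcpt4 and Tpsb2. In T cell-like cells, which should lack it, S100a9 was at 1116, 538, 49.4 and 466 CPM, beside 20242, 13218, 4631 and 7171 CPM in neutrophil-like cells. Whether free RNA carried these genes into other classes was not tested.

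To set shares of cells side by side, each cell was thinned to 1000 UMIs and shallower cells were left out, between 0 and 157 for each class and day. Retnlg was found in 65.5, 42.4, 22.8 and 20.2% of neutrophil-like cells on days 1, 3, 5 and 7 (77.5, 51.7, 28.4 and 32.5% without thinning) and in 18, 3.28, 0.709 and 1.59% of T cell-like cells. Ctsk was found in 0, 5.01, 27.7 and 12% of macrophage-like cells (2.56, 22.3, 94.8 and 65.3% without thinning) and in 0, 1.23, 27 and 9.56% of T cell-like cells. The median depth was between 3932 and 11682 UMIs in macrophage-like cells and between 3325.5 and 4048 in T cell-like cells. On day 5 the share with Ctsk in macrophage-like cells, 27.7% (25.3 to 30.3), was close to the 27.0% (19.8 to 35.1) of a class that should lack the gene, so no expression is read from it. On day 3 the shares were 5.01% (3.27 to 7.31) and 1.23% (0.254 to 3.55). Where this RNA came from was not tested.

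Other genes stood above that level. Gdf15 was found in 16.4, 25.5, 43.4 and 43% of macrophage-like cells after thinning and in 0, 7.38, 13.5 and 22.1% of T cell-like cells. Igf1 was found in 16.4, 7.62, 26.5 and 21.1% and 0, 0, 4.96 and 5.98% of these classes, and Lpl in 19.4, 13.8, 32.1 and 31.6% and 1, 1.23, 10.6 and 11.4%. For each of the 3 genes the share was higher in macrophage-like cells on each day. On day 7 Col1a2 was found in 17.3% of neutrophil-like, 20.5% of monocyte-like, 17.7% of macrophage-like, 18.8% of dendritic-like and 17.5% of T cell-like cells, a like share in all 5 classes. These genes were chosen after their values were seen.

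**Figure D5:**
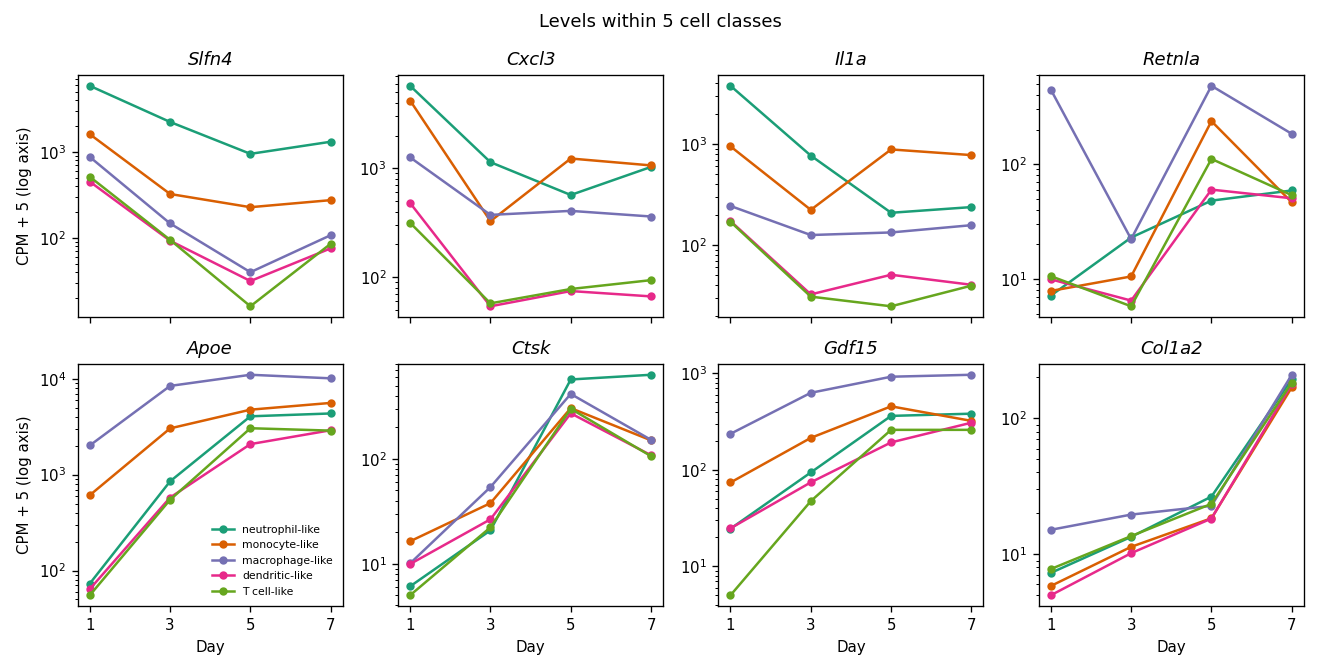
CPM + 5 (y axis, log scale) against day (x axis) for 8 genes in 5 marker-defined classes, with 1 library for each day and each point the summed UMIs of a class. Cxcl3 and Il1a fell after day 1 in neutrophil-like cells, Apoe and Gdf15 were highest in macrophage-like cells on every day, and Col1a2 rose to a like level in all 5 classes on day 7 (164 to 204 CPM).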

How the data were processed

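CD45+ cells were sequenced in 8 libraries, of which the 4 control libraries were used. The deposited tables hold counts, whole-number UMIs per gene and barcode, which the authors made after trimming with fastp 0.20.1 and alignment to a mouse genome. The genome is given as mm9 in the submitters' processing notes and as an Ensembl mouse genome in the study's methods, and the platform also differs between sources. No coordinate of the count tables was used.

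The members, gene lists and markers were chosen with earlier results of these data known. Kept barcodes had over 200 genes other than mitochondrial ones and less than 20% mitochondrial UMIs (19236522 to 33842509 UMIs a library before this step). Tested genes had at least 50 UMIs over the 4 libraries and 20 CPM on 1 day, and 5 CPM was added before folds. Named genes were the 5 of the largest fold at 100 CPM or more for each highest day and for steady rise and fall, in classes the 5 for day 1 and the 5 for later days without marker genes, and list members at 100 CPM or more. A few list members under 100 CPM, Ptprc and the members of classes given beside their neighbours were named after their values were seen. Results of some genes are not reported here.

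For classes, counts were scaled to 10000 a cell and log-transformed, 2000 variable genes were taken, total UMIs were regressed out, and 10 principal components with 30 neighbours were clustered by Leiden at resolution 0.8 and seed 0. Clusters were named from markers. Clusters whose best marker score, a mean log2 fold over other cells, was under 0.25, and clusters tied with the markers of another class, far shallower than their library and led by Gm26917 or Malat1, or led by immunoglobulin genes stayed unnamed, rules that were set after the clusters were seen. The best and next class score lay within 0.1 in 2137 cells (12.5%), and 62.4% of cells had the class of their cluster when named singly. Intervals are Clopper-Pearson for shares and conditional binomial for ratios of counts.

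Alternatives were other pseudocounts, scalings, fold limits, clusterings and quality limits, equal weight per cell and leaving out a day. Only the rule for changed genes and their highest day was tested on simulated data. These were pooled counts with counting error and no spread between libraries. Python 3.11.15, numpy 2.4.6, pandas 2.3.3, scipy 1.17.1, scikit-learn 1.9.0, scanpy 1.11.5, leidenalg 0.10.2, igraph 0.11.9 and matplotlib 3.10.9 were used. The 4 STZ libraries entered only the comparison of highest days and the values from them below.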

Additional observations from a re-analysis of the deposited data

Results flagged for a closer look

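Among the named genes, 3 moved in opposite directions between the same days in control and STZ wounds, at 1 library for each day, so that the difference was not tested. Gzma was 8.65-fold lower on day 3 than on day 5 in the STZ libraries (7.75 to 9.67; 15 and 130.0 CPM), while the control libraries stood at 199 and 6.86 CPM. Plac8 was 1.58-fold lower on day 3 than on day 5 in the STZ libraries (1.53 to 1.63; 285 and 449 CPM), against 732 and 59.5 CPM in the control libraries. Retnla was 4.27-fold lower on day 5 than on day 1 in the STZ libraries (3.42 to 5.37; 4.71 and 20.1 CPM), against 298 and 12.3 CPM in the control libraries. Each pair includes the control library of day 5, which lost the most barcodes.

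Signal was also seen in barcodes over the limit on mitochondrial UMIs, many of which held too few genes as well. Of 148, 258, 1242 and 47 such barcodes on days 1, 3, 5 and 7, 65, 120, 585 and 46 failed this limit only. The median depth of all such barcodes was low, at 262.5, 276, 253 and 743 UMIs. Lists with at least 50 UMIs in these barcodes and an interval wholly above 4-fold over the kept cells are given first. On day 3 the fibroblast markers summed to 964 CPM in 258 such barcodes (86 UMIs), 5.81-fold (4.63 to 7.20) above the 166 CPM of the kept cells. On day 5 they summed to 1810.2 CPM in 1242 barcodes (762 UMIs), 4.55-fold (4.22 to 4.89) above 398 CPM. Markers of muscle, fat and nerve summed to 289.8 CPM in the barcodes of day 5, 33.6-fold (26.8 to 41.8) above 8.63 CPM in the kept cells. The fibroblast markers were also 28.6-fold (20.2 to 39.5) above the kept cells on day 1, from 40 UMIs, and 2.16-fold (1.88 to 2.48) on day 7, at 5497 against 2544 CPM. The muscle, fat and nerve markers were 31.0-fold (18.7 to 49.1) above them on day 3, from 21 UMIs, 5.40-fold (0.647 to 19.9) on day 1, from 2 UMIs, and 10.7-fold (2.90 to 27.6) on day 7, from 4 UMIs. No group had 4 samples or more, so no sample was examined as an outlier.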

How the results depend on the processing

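Counts of changed genes and class shares were recomputed with 1 choice changed at a time, and the named genes with 1 CPM added, equal weight and median-ratio scaling. The STZ comparison, thinned shares, marker sums and motif shares were not recomputed. No result turned its direction among the counts, the named genes and the shares of the 5 named classes on day 7 minus day 1, while that of unnamed clusters, 6.21% and 15.5% on days 1 and 7, turned at resolution 0.4 (4.35% and 0.150%) and 1.6 (8.64% and 4.30%). The step of a share from day 5 to day 7 did turn, down to up for monocyte-like cells (finer clustering, single naming, no mitochondrial limit) and up to down for macrophage-like cells (these and coarser clustering) and dendritic-like cells (single naming). Among counts and shares 95 values stayed within their limits and 62 moved beyond them. For the named genes, 148 of 228 values stayed, 80 moved and 0 turned. Counts are given below as changed genes, then genes falling and rising at every step, then those highest on days 1, 3, 5 and 7 where they moved. With 1 CPM added, 187 genes were highest on day 5. With 20 CPM added, 171 changed, 5 fell, 20 rose and 91, 17, 34 and 29 were highest. Equal weight for each cell gave 6 falling and 36 rising. Scaling by the median ratio gave 19, 34, then 288, 19, 54 and 55. Without day 1, 138 changed, 2 fell, 34 rose, and 81, 16 and 41 were highest on days 3, 5 and 7. Without day 5, 232 changed, 76 fell, 111 rose, and 88 and 20 were highest on days 1 and 3. Without day 7, 143 fell and 137 rose. At 2-fold, 2025 changed, 41 fell, 209 rose and 441, 255, 984 and 345 were highest. At fixed cluster shares, 255 changed.

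Within classes, 20 CPM added gave 357, 74, 43, 55 and 103 changed genes in neutrophil-, monocyte-, macrophage-, dendritic- and T cell-like cells, and 1 CPM gave 381, 267, 253 and 682 in the last 4 of these. Neutrophil-like cells gave 338 at equal weight, 665 by the median ratio and 225 named singly. Macrophage-like cells gave 335 at equal weight, 357 at resolution 1.6 and 315 within their largest cluster, an alternative chosen after seeing the data. Without day 5, dendritic-like cells gave 91 and T cell-like cells 237. The share of monocyte-like cells on day 7 minus day 1 was -25.3 percentage points, and -9.09 at resolution 1.6, -17.7 with cells named singly and -13.9 with no mitochondrial limit. For macrophage-like cells it was 38.0, and 51.3 at resolution 0.4, 25.1 at 1.6, 22.1 singly and 24.7 with no limit. For T cell-like cells it was 8.50, and 10.1 at resolution 0.4. At that setting no cluster was named NK cell-like, so this class had 0 cells on each day. The T cell-like cluster then had Gzma, Gzmb and Nkg7 among its leading genes. The cause of these moves was not tested. No paired analysis was possible because each day had 1 library and no test was run, and leaving out a replicate was not possible for the same reason. Day 1 holds 78 macrophage-like, 118 dendritic-like and 102 T cell-like cells and day 7 holds 39 monocyte-like cells, which limits their levels.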

Other observations

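Iron and antioxidant genes, a list not described above, changed in 4 of 19 cases over all immune cells, against 6.18% of all tested genes. Slc7a11, the cystine importer that supports glutathione, was at 1320.1, 569, 172 and 241 CPM on days 1, 3, 5 and 7. Tfrc, the transferrin receptor, was at 43, 82.6, 249 and 87.1 CPM and Slc40a1, the iron exporter, at 16.8, 28.1, 82.8 and 42.7 CPM, both highest on day 5. Mt2, a metallothionein that binds zinc, was at 36.6, 25, 130.3 and 137 CPM. Hmox1, the haem-degrading enzyme, was at 1359, 1415, 3244 and 2093 CPM, and Fth1, the ferritin heavy chain, at 30457, 18852, 15849 and 16299 CPM, and neither passed 4-fold.

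Of 16 matrix proteases and their inhibitors 6 changed, against 6.18% of all tested genes. Of the 6, 3 were highest on day 1, 2 on day 5 and 1 on day 7. Mmp12, macrophage elastase, was at 16.3, 13.4, 222 and 126 CPM, and F10, coagulation factor X, at 453, 159, 64.3 and 118 CPM. Timp2, an inhibitor of matrix metalloproteinases, was at 119.8, 241, 689.9 and 587 CPM. Plau and Plaur, the urokinase activator and its receptor, were at 359, 262, 304 and 260.1 and at 1487, 804, 535 and 622 CPM, and neither passed 4-fold.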
